A study of Homo sapiens with 118 samples.

Results

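The proteasome is the large protease that degrades proteins tagged with ubiquitin. Its 20S core is a barrel of alpha rings (PSMA genes) and beta rings (PSMB genes), and 3 of the beta subunits, PSMB5, PSMB6 and PSMB7, carry the proteolytic sites. In cells exposed to interferon these are replaced by PSMB8, PSMB9 and PSMB10, which form the immunoproteasome and change the peptides offered to T cells on MHC class I. The 19S cap consists of a ring of ATPases (PSMC genes) that unfold the substrate and of non-ATPase subunits (PSMD genes) that bind and cut off ubiquitin. PSME genes encode other activators of the core, PSMF1 encodes an inhibitor, and PSMG genes and some PSMD genes encode assembly chaperones that are not part of the finished particle.

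The members are the rows of the count table whose gene symbol starts with PSMA, PSMB, PSMC, PSMD, PSME, PSMF or PSMG followed by a number. They are 58 of 22069 features, a feature being a detector probe named by its gene symbol and a probe number, and they name 48 genes. PSMC3IP, a cofactor of meiotic recombination, shares the prefix and is no proteasome component. It was kept as the rule gives it, and its values are described apart. The counts of members called and the summed level below include it, with 2 of the 47 rising calls at C5. PSMD12 was not analysed here. Of the 58 features, 51 had enough counts to be tested in at least 1 chemical and 46 were tested in all 8.

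The data were 118 TempO-Seq libraries of differentiated HepaRG cells, an established human liver tumour line that yields hepatocyte-like and biliary-like cells. Cells were exposed for 72 hours, with daily renewal, to vorinostat, tacedinaline or scriptaid (1 plate) or to valproic acid, trichostatin A, panobinostat, mocetinostat or apicidin (another plate). All 8 inhibit histone deacetylases, the enzymes that remove acetyl groups from histones and other proteins. Each chemical had 5 concentrations, C1 (lowest) to C5 (highest), with 1 library from each of 3 HepaRG batches. The exceptions were panobinostat C3 and trichostatin A C4, which had 2 libraries each, without batch 3. From C1 to C5 the concentrations ran from 0.041722 to 0.86 µM for apicidin, from 0.177222 to 3.9 µM for mocetinostat, from 0.001468 to 0.084 µM for panobinostat, from 4.94 to 94.5 µM for scriptaid, from 1.143333 to 44 µM for tacedinaline, from 0.018811 to 1.5237 µM for trichostatin A and from 0.404778 to 23.5 µM for vorinostat. For valproic acid the dose labels ran from 100.478 to 3038, and the treatment text gives values smaller by a constant factor, so its unit was not settled. Since concentrations differed between chemicals, their values are given side by side without a comparison of chemicals.

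Solvent controls were not analysed here, so each concentration was compared with C1 of the same chemical, and a response complete at C1 would not be seen. Calls rest on edgeR's quasi-likelihood test, with an adjusted p under 0.05 over all features tested in a chemical and a fold change of at least 1.5. Levels are given in CPM, that is counts scaled for library size with TMM factors over all libraries. Probes differ in efficiency, so levels were not compared between genes. Replicates are batches of 1 cell line, and p-values measure the spread between these batches.

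Total counts per library ranged from 1061359 to 5250260 (median 3702007), and the members held 0.293% to 0.707% of them. The mean total was lower at C5 than at C1 in each chemical. It went from 3038905 to 1485592 in vorinostat and from 3646506 to 2325353 in scriptaid. The part of this difference in depth in the results below was not tested. The mean correlation of a library with the others of its group had a median of 0.960. It was lowest in scriptaid C4 batch 3 (0.809) and mocetinostat C2 batch 3 (0.834), and it was 0.881 in trichostatin A C1 batch 3. Over all features, 11.6% of the tests at C5 in the 8 chemicals were called rising and 13.4% falling. Of the hepatocyte markers (10 genes, 12 features), 80 of 96 tests (83.3%) were called falling at C5 and 0 rising. At C5 their summed level lay under every C1 library of the same chemical in all but trichostatin A. It ranged over libraries from 14014 to 72359 CPM at C1 and from 3102 to 50007 CPM at C5, and the lowest value at C1 was that of trichostatin A batch 3. Biliary or progenitor markers had 11 rising (33.3%) and 0 falling calls in 33 tests. SOX9 and SPP1 rose in 5 chemicals each. KRT19 was called rising in 1 chemical by its feature KRT19_3690 (-0.97 to 0.96) and in 0 by KRT19_10816 (-0.51 to 0.36). KRT7 was tested in 1 chemical by 1 feature and was not called (-1.98). EPCAM and CFTR were at 0 in 113 and 110 libraries. Fibroblast markers had 8 rising (14.3%) and 20 falling (35.7%) calls in 56 tests, and endothelial markers 0 rising and 1 falling (10%) in 10. Immune markers had 0 rising and 3 falling (18.8%) calls in 16 tests. Their summed level ranged from 24.7 to 122 CPM at C1 and from 15.3 to 53.1 CPM at C5. Of these 6 genes PTPRC, the leukocyte marker, had 0 counts in all 118 libraries and CD3E and LYZ were at 0 in 116 and 115, while CD68 was counted in every library (median 33.9 CPM) and CD14 was at 0 in 2. The part of these marker changes in the results below was not tested, and fewer cells of a type and less RNA per cell cannot be told apart in such lysates.

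The sequences that stand for the results below are the promoters of both immunoproteasome genes measured and of 3 genes that rose in several chemicals. They are the 250 bases before the start site from RefSeq (GRCh38.p14), read 5′ to 3′ on the strand of the gene. Capitals mark matches, on either strand, to the letters TGACNNNGC (the core of the antioxidant response element, which NFE2L1 and NFE2L2 bind), CCAAT (the CCAAT box) and GGGCGG (the GC box). The windows are chr6:32844680-32844929 (minus strand) for PSMB8, chr6:32853942-32854191 (plus strand) for PSMB9, chr1:109426449-109426698 (minus strand) for PSMA5, chr17:39980557-39980806 (plus strand) for PSMD3 and chr11:236726-236975 (plus strand) for PSMD13.
PSMB8: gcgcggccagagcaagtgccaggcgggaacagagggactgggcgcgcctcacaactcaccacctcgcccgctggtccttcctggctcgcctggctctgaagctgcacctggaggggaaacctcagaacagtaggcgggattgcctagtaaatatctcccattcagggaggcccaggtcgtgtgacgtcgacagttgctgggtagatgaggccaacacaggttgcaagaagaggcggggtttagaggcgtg
PSMB9: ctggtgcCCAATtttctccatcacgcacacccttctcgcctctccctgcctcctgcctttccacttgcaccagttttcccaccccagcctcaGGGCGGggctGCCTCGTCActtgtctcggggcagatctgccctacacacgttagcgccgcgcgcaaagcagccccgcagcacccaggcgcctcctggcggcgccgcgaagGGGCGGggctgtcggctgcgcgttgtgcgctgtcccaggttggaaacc
PSMA5: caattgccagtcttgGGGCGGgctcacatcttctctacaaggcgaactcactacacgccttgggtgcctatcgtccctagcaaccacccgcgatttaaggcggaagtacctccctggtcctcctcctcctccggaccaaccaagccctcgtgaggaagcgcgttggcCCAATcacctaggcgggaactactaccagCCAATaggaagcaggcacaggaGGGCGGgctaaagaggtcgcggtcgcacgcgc
PSMD3: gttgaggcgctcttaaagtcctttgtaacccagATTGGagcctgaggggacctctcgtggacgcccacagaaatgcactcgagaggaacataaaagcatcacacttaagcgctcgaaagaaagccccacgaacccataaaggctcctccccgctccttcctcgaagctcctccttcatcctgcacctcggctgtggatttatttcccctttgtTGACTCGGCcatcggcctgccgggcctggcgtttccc
PSMD13: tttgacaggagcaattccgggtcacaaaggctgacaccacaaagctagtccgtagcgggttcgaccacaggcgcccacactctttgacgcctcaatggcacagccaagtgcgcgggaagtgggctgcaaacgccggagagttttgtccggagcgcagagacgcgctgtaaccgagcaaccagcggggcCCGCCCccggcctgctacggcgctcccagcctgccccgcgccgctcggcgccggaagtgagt

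In these windows PSMB8 had no match to the 3 motifs, PSMB9 held all 3, and PSMA5 held CCAAT and GGGCGG, each 2 times. Windows of 300 bases, 250 before and 50 after the start, were found for 42 of the 48 genes, and the 41 other than PSMC3IP were set beside all 35116 promoters of that table. The antioxidant response element core was in 12 of the 41 (29.3%) against 13.3% of all promoters, the GC box in 27 (65.9%) against 45%, and CCAAT in 19 (46.3%) against 34.6%. The interferon response core GAAANNGAA was in 7 (17.1%) against 8.11%, and the heat shock core GAANNTTC in 0 against 6.77%. Among the 15 of these genes called rising at C5 in at least 1 chemical, the antioxidant response element core was in 4 (26.7%). Of the member windows, 8 overlap that of a neighbouring gene on the other strand, by 13 to 299 bases. Among those printed, PSMB9 overlaps TAP1, a peptide transporter gene, by 13 bases and PSMD13 overlaps SIRT3 by 144. A match is a description of the letters in the window only.

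At the highest concentration, all calls among the constitutive 20S and the 19S subunits were rises against the lowest, and all calls of the immunoproteasome genes PSMB8 and PSMB9 were falls. Over the 8 chemicals 385 tests were made on members at C5. Of these, 47 were called rising, in 23 features, and 9 were called falling, in 3 features. The rises ranged from 0.59 to 2.15 on the log2 scale with a median of 0.96. Counted in the same way, 11806 of the 101732 tests of all features were called rising (11.6%) and 13583 falling (13.4%), against 12.2% and 2.34% of the member tests. No feature was called rising in 1 chemical and falling in another at C5, so no difference between chemicals was tested. Of the 56 member calls at C5, 52 had C1 and C5 libraries that did not overlap. A lack of overlap, given below for single features, thus adds little to a call. The share of all features without overlap was not counted.

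**Figure D1:**
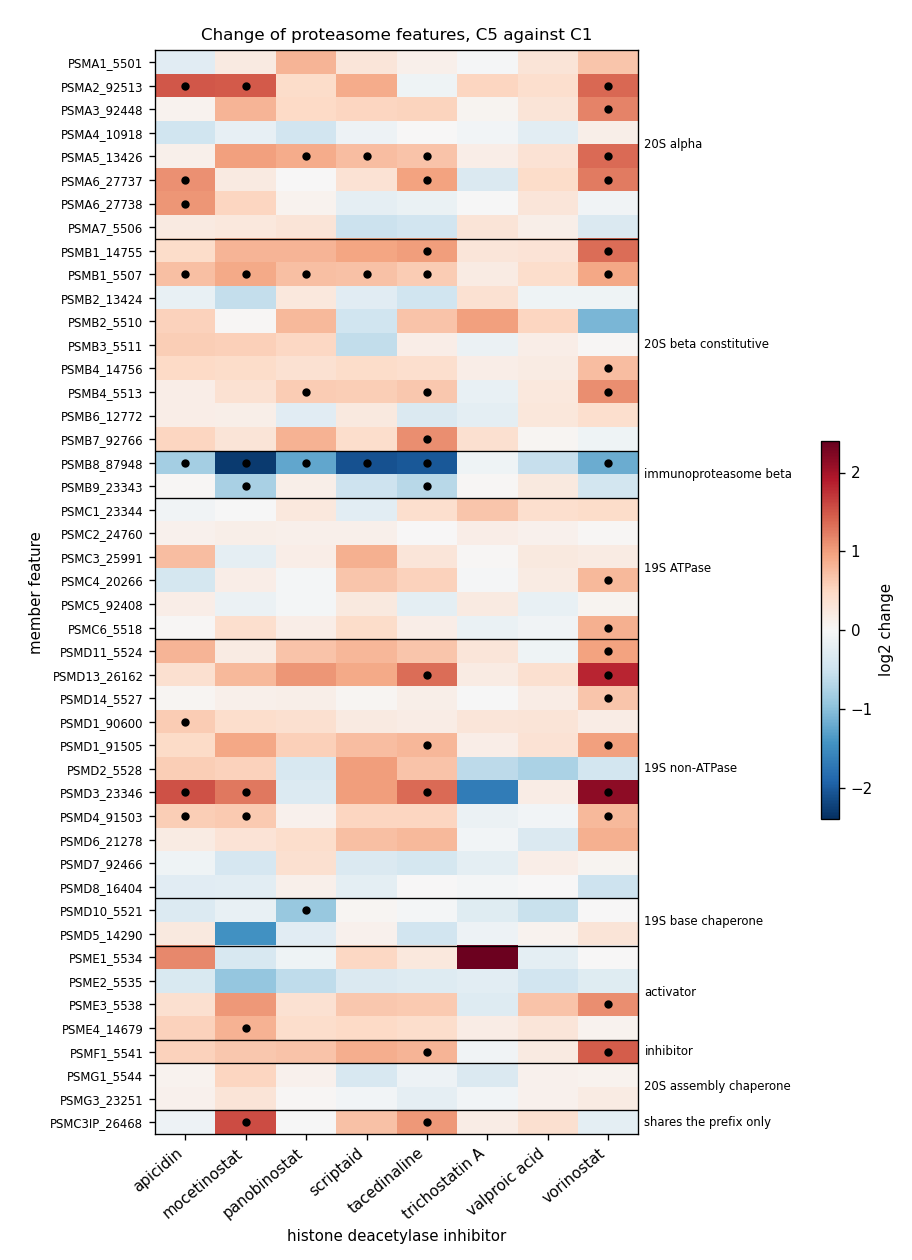
Log2 change at C5 against C1 of the 46 features tested in all 8 chemicals (rows, grouped by structural class) for each inhibitor (columns). Red is higher and blue lower at C5, and a black dot marks a call (adjusted p under 0.05 and fold change of at least 1.5). PSMB8 is blue and dotted in 6 columns and PSMB9 in 2, while the dotted cells of the constitutive core subunits are red.

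The share of members called rising was near that of all features in most chemicals. In vorinostat 18 of 46 members tested were called rising (39.1%), against 22.7% of all 11631 features. In tacedinaline there were 11 of 47 (23.4%) against 18.7%, in apicidin 7 of 48 (14.6%) against 13.8%, and in mocetinostat 6 of 48 (12.5%) against 14.8%. Panobinostat had 3 of 50 (6%) against 6.77%, and scriptaid 2 of 48 (4.17%) against 12.8%. Valproic acid had 0 of 48, with 4.84% of all features called rising and 5 members at an unadjusted p under 0.05. Trichostatin A had 0 of 50, with 0% of all features and 4 members at an unadjusted p under 0.05. DESeq2 gave 0 members rising or falling in both of these chemicals.

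Falling members were fewer than the falling share of all features in each chemical with calls. Apicidin had 1 (2.08%) against 15%, mocetinostat 2 (4.17%) against 15.7%, panobinostat 2 (4%) against 9.46%, and scriptaid 1 (2.08%) against 17%. Tacedinaline had 2 (4.26%) against 20.1% and vorinostat 1 (2.17%) against 24.9%. Valproic acid and trichostatin A had 0, against 6.22% and 0.0154% of all features. The median change of the members was positive in 7 chemicals, from 0.17 in valproic acid to 0.43 in scriptaid, while that of all features ranged from -0.00 in panobinostat to 0.08 in mocetinostat over the same 7. In trichostatin A the members' median was -0.02.

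**Figure D2:**
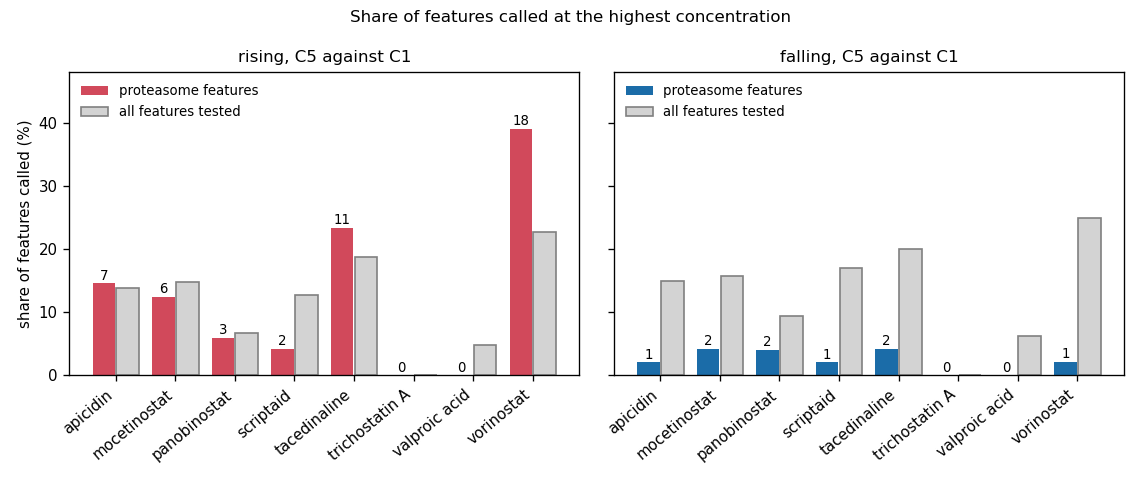
Share of features called rising (left) and falling (right) at C5 against C1, in percent, for each inhibitor. Coloured bars are proteasome features with the number called above them, and grey bars are all features tested. The coloured bars stand above the grey ones for rising features in vorinostat and tacedinaline, are close in apicidin, and stay under them for falling features in every chemical with calls.

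The counts depended on single batches where they were small. Without batch 2 and without batch 3 apicidin had 3 and 4 rising members, mocetinostat had 2 without batch 1 or 2, and panobinostat had 1 without batch 1 and 0 without batch 3. Tacedinaline had 6 without batch 2. In scriptaid 10 members rose without batch 3, and the lowest count with a batch left out was 0, against 2 with all libraries. There were 8 when only the C4 library of batch 3, the one that stood apart, was left out. In mocetinostat 9 members rose without the C2 library of batch 3. The shares of all features called in these fits are not given here, so the counts are not a result about the members alone. Of the 51 calls at C5 among the features named by the rule in the methods, 22 held with each batch left out in turn.

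PSMB8, the immunoproteasome subunit that takes the place of PSMB5, fell at C5 in 6 of 8 chemicals. In mocetinostat its level was 145, 178 and 206 CPM in batches 1, 2 and 3 at C1 (177 ± 30.7, SD, n = 3) and 32.2, 29.0 and 40.6 CPM at C5 (33.9 ± 5.99). In tacedinaline it was 137, 146 and 203 CPM at C1 and 44.5, 33.5 and 35.4 CPM at C5. In scriptaid it was 146, 155 and 172 CPM at C1 and 34.8, 42.3 and 28.1 CPM at C5. In these 3 chemicals every C1 library lay far above every C5 library, and the fold was 4.91, 4.12 and 4.26. The log2 changes were -2.30 (SE 0.28, edgeR adjusted p = 1.17e-05), -2.04 (SE 0.19, adjusted p = 1.31e-11) and -2.09 (SE 0.34, adjusted p = 0.000147).

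PSMB8 was also called falling in 3 other chemicals. In panobinostat it went from 180, 174 and 153 CPM at C1 to 71.1, 67.9 and 78.1 CPM at C5 (log2 change -1.24, SE 0.20, edgeR adjusted p = 0.000124). In vorinostat it went from 143, 141 and 150 CPM to 67.8, 66.4 and 43.0 CPM (log2 change -1.19, SE 0.21, adjusted p = 1.29e-05). In apicidin it went from 103, 98.8 and 164 CPM to 68.0, 67.7 and 69.4 CPM (log2 change -0.82, SE 0.25, adjusted p = 0.0179). The C1 and C5 libraries did not overlap in any of these 3 chemicals. The apicidin call was lost without batch 2 (-0.95) and without batch 3 (-0.57, adjusted p = 0.195), whereas the calls of the other 5 chemicals held with each batch left out. In valproic acid the groups did not overlap either, at 128, 154 and 187 CPM against 84.7, 121 and 110 CPM, but the change of -0.56 (SE 0.22) had an adjusted p of 0.109. In trichostatin A the levels were 162, 129 and 72.8 CPM at C1 and 99.3, 101 and 136 CPM at C5, which overlap (log2 change -0.10, SE 0.25, adjusted p = 0.942), and the change was 0.24 without batch 1 and 0.02 without batch 2.

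Along each concentration series, PSMB8 was called falling from C3 on in apicidin (63.4 ± 20.9 CPM at C3) and mocetinostat (85.7 ± 22.3 CPM). In tacedinaline and vorinostat it was called from C4 on, at 55.0 ± 6.51 and 57.9 ± 15.6 CPM. In panobinostat and scriptaid it was called at C5 only among the 4 comparisons with C1. In mocetinostat the level was higher at C2 (251 ± 68.4 CPM) than at C1 without a call (log2 change 0.59, SE 0.26, adjusted p = 0.241). In scriptaid the C4 libraries were at 160, 141 and 371 CPM, the highest being the batch 3 library that stood apart, and a straight line over the 5 concentrations gave no call there (-0.41, SE 0.60, adjusted p = 0.701).

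**Figure D3:**
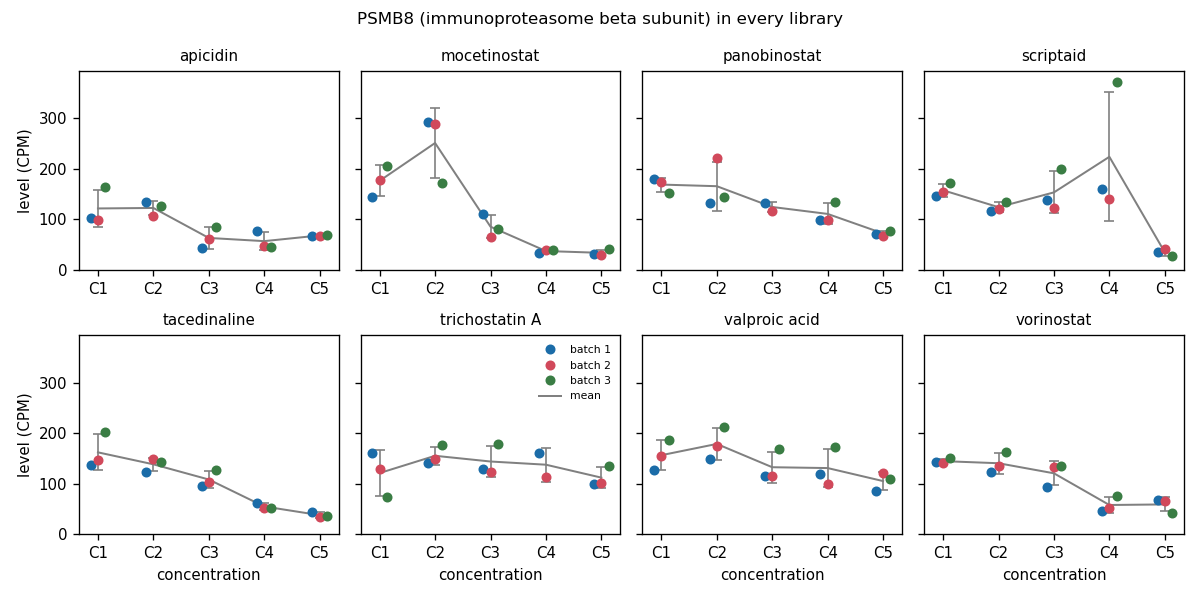
Level of PSMB8 in CPM (vertical axis) in every library at C1 to C5 (horizontal axis), 1 panel for each inhibitor. Points are libraries coloured by HepaRG batch, the grey line joins the means and bars are the SD. The 3 libraries at C5 lie under all C1 libraries in 7 panels, and in trichostatin A they overlap.

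PSMB9, the immunoproteasome subunit that takes the place of PSMB6, was called falling in 2 chemicals. In mocetinostat it went from 212, 302 and 187 CPM at C1 to 140, 134 and 110 CPM at C5 (log2 change -0.78, SE 0.26, edgeR adjusted p = 0.0293). In tacedinaline it went from 208, 230 and 223 CPM to 112, 128 and 156 CPM (log2 change -0.66, SE 0.15, adjusted p = 0.000503). In both chemicals all C5 libraries lay under all C1 libraries. Both calls were lost when library totals were used without scaling factors, at -0.58 (adjusted p = 0.109) and -0.47 (adjusted p = 0.0110), and the mocetinostat call also without batch 2 (-0.59, adjusted p = 0.332). In the other 6 chemicals PSMB9 was not called, with changes from -0.49 in scriptaid to 0.23 in valproic acid. PSMB10, the third subunit of this set, had at most 3 counts in 117 of 118 libraries and was not tested. PSMB11, the thymus form, was at that level in 117 libraries too.

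None of the constitutive catalytic subunits was called falling. PSMB6 was called in 0 chemicals at C5, with changes from -0.35 to 0.40. PSMB7 rose in tacedinaline, from 7.58, 15.4 and 13.4 CPM to 24.2, 28.7 and 25.2 CPM (log2 change 1.12, SE 0.36, edgeR adjusted p = 0.00990), a call lost without batch 1 (0.97, adjusted p = 0.0544), and lay between -0.10 and 0.84 elsewhere. PSMB5 had a median of 6 counts, was tested in 6 chemicals and was called in 0, so its level could not be followed at this depth.

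PSMB1, a structural beta subunit, was the member called rising in the most chemicals. Its feature PSMB1_5507 rose in 6 chemicals, by 0.60 to 0.92 on the log2 scale. In panobinostat it went from 134, 121 and 125 CPM at C1 to 213, 202 and 221 CPM at C5 (log2 change 0.73, SE 0.16, edgeR adjusted p = 0.00242). In vorinostat it went from 181, 226 and 225 CPM to 254, 393 and 462 CPM (log2 change 0.92, SE 0.17, adjusted p = 2.76e-05). C1 and C5 libraries did not overlap in any of the 6. The vorinostat call was the only one of these 6 that held with each batch left out, and the values without a batch stayed positive in all 6. The second feature, PSMB1_14755, had the same sign in 8 of 8 chemicals and was called in tacedinaline (log2 change 1.00, SE 0.23) and vorinostat (1.35, SE 0.23), both held with each batch left out.

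**Figure D4:**
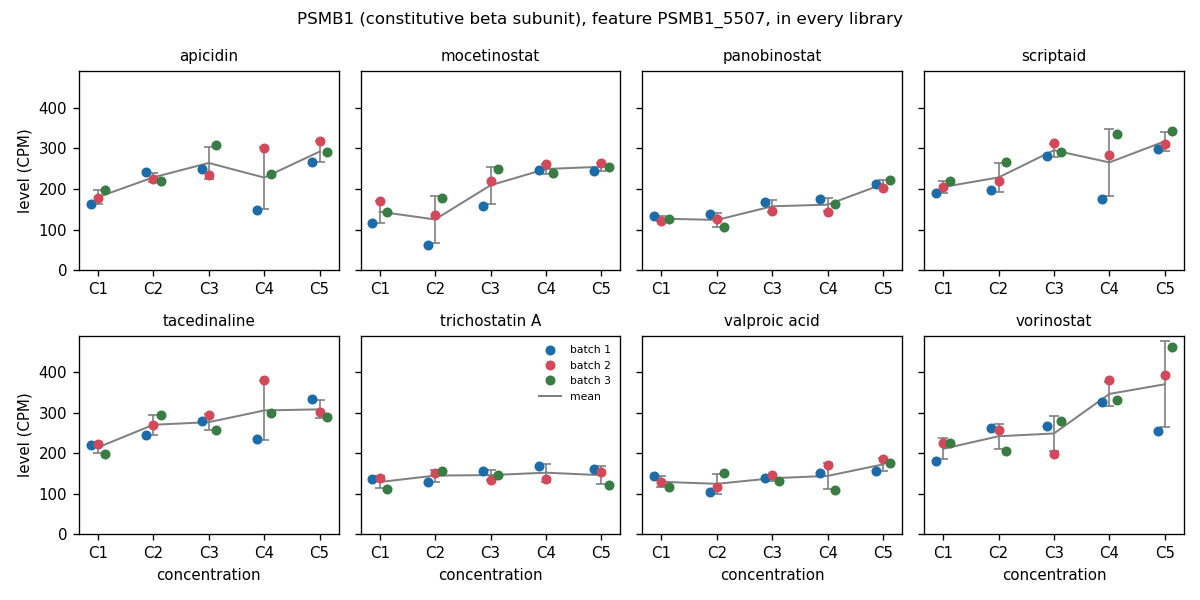
Level of PSMB1_5507 in CPM (vertical axis) in every library at C1 to C5 (horizontal axis), 1 panel for each inhibitor. Points are libraries coloured by HepaRG batch, the grey line joins the means and bars are the SD. All C5 libraries lie above all C1 libraries in 7 panels, and in trichostatin A they overlap.

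PSMB4, another structural beta subunit, rose by its feature PSMB4_5513 in panobinostat (0.61), tacedinaline (0.65) and vorinostat (1.11), of which the last held with each batch left out. Its second feature had the same sign in 7 of 8 chemicals and rose in vorinostat, from 388, 364 and 395 CPM to 558, 559 and 669 CPM (log2 change 0.75, SE 0.13). PSMB2 and PSMB3 were called in 0 chemicals, and the features of PSMB2 had the same sign in 4 of 8. Over all chemicals 13 of 78 tests of constitutive beta features were called rising (16.7%, against 11.6% of all tests) and 0 falling, with a median change of 0.37. The 16 tests of PSMB8 and PSMB9 gave 0 rising and 8 falling (50%, against 13.4% of all tests) with a median of -0.61. Of these falls, 6 were of PSMB8 and 2 of PSMB9, so the share rests on repeated readings of 2 features in the same 3 batches.

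Alpha subunits form the outer rings of the core and its gate, and 12 of 69 tests were called rising (17.4%, against 11.6% of all tests) and 0 falling, with a median of 0.29. PSMA5 rose in 4 chemicals. In vorinostat it went from 83.8, 87.1 and 96.9 CPM to 211, 206 and 224 CPM (log2 change 1.36, SE 0.18, edgeR adjusted p = 9.41e-08), and in panobinostat from 80.9, 82.5 and 84.6 CPM to 160, 140 and 166 CPM (0.89, SE 0.20, adjusted p = 0.00295). In tacedinaline the change was 0.68 and in scriptaid 0.74, and the vorinostat call was the one of the 4 that held with each batch left out. The groups did not overlap in any of the 4.

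PSMA2 rose in apicidin, mocetinostat and vorinostat, 2.82-fold, 2.77-fold and 2.58-fold. In mocetinostat it went from 4.74, 9.29 and 13.5 CPM to 17.8, 32.8 and 21.2 CPM, and in vorinostat from 5.59, 13.1 and 12.4 CPM to 24.5, 27.3 and 25.3 CPM. The apicidin call, from 11.4 ± 1.13 to 31.9 ± 7.27 CPM (SD, n = 3), was the one that held with each batch left out, and the groups did not overlap in any of the 3. PSMA6_27737 rose in tacedinaline (0.96, SE 0.18) and vorinostat (1.24, SE 0.19). Its call in apicidin (1.10, SE 0.25) came from batches 1 and 2, since batch 3 had 152 CPM at C1 and 150 CPM at C5, and it was lost without batch 2 (0.78, adjusted p = 0.0994). A second feature, PSMA6_27738, rose in apicidin (1.05) but was at -0.17 in tacedinaline and -0.08 in vorinostat without a call. These 2 features thus disagreed in tacedinaline and vorinostat and had the same sign in 5 of 8 chemicals. The third feature, PSMA6_15103, had a median of 4 counts, was tested in 3 chemicals and was called in 0. PSMA3 rose in vorinostat, from 295 ± 14.9 to 623 ± 62.6 CPM (SD, n = 3), and PSMA1, PSMA4 and PSMA7 were called in 0 chemicals. PSMA8, a testis form, was not tested.

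Among the 19S subunits, 14 of 88 tests of the non-ATPase features were called rising (15.9%, against 11.6% of all tests) and 0 falling, with a median of 0.30. Of 50 tests of the ATPase features, 2 were called rising (4%) and 0 falling, with a median of 0.15. The difference between these shares was not tested. Both ATPase calls were in vorinostat, PSMC4 (0.78, SE 0.28) and PSMC6 (0.86, SE 0.27), and neither held with each batch left out. PSMC2, with a median of 942.5 counts, changed by 0.00 to 0.17 over the 8 chemicals. One of the features of PSMC3 had a median of 2 counts and its values were not read.

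PSMD3, a scaffold subunit of the lid, rose in 4 chemicals from low levels. In vorinostat it went from 3.35, 7.30 and 2.49 CPM to 16.3, 16.9 and 23.0 CPM (log2 change 2.15, SE 0.47, edgeR adjusted p = 0.000297). In apicidin, mocetinostat and tacedinaline it rose by 1.53, 1.26 and 1.36, and these 3 calls were lost when single batches were left out. In tacedinaline the groups overlapped, batch 1 being at 6.43 CPM at C5. With a median of 25 counts a library, the depth behind these values was small. PSMD13, another lid subunit, rose in tacedinaline from 27.8, 12.1 and 19.0 CPM to 44.5, 52.7 and 37.8 CPM (1.34, SE 0.31) and in vorinostat from 18.4, 8.81 and 11.2 CPM to 47.3, 46.6 and 28.9 CPM (1.83, SE 0.36). The groups did not overlap, and the tacedinaline call was lost without batch 2 (0.93, adjusted p = 0.0538).

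PSMD4, the ubiquitin receptor of the cap, and PSMD1, the largest scaffold of the base, had median counts of 1395 and, for the 2 features of PSMD1, 1767 and 522.5. PSMD4 rose in apicidin (371 ± 18.4 to 553 ± 24.0 CPM, SD, n = 3, log2 change 0.59), mocetinostat (0.63) and vorinostat (0.78, SE 0.13, edgeR adjusted p = 5.67e-06), the last being held with each batch left out. PSMD1_91505 rose in tacedinaline from 123, 131 and 142 CPM to 213, 235 and 208 CPM (0.79, SE 0.15) and in vorinostat from 147, 127 and 132 CPM to 267, 277 and 201 CPM (0.99, SE 0.17). Both calls held with each batch left out. The other feature, PSMD1_90600, rose in apicidin (0.60, SE 0.14), and the features of PSMD1 had the same sign in 8 of 8 chemicals. PSMD14, the enzyme that removes ubiquitin from substrates at the cap, rose in vorinostat (0.66, SE 0.24, adjusted p = 0.0214). That call was lost without batch 1 and without batch 3 (0.33, adjusted p = 0.329), and in the other 7 chemicals PSMD14 changed by -0.01 to 0.17.

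Activators, inhibitor and chaperones gave few calls. PSMF1, the inhibitor of the core, rose in tacedinaline (0.81, SE 0.26) and in vorinostat, from 54.2, 34.5 and 34.5 CPM to 113, 114 and 80.8 CPM (1.46, SE 0.26, edgeR adjusted p = 2.21e-05). The second of these held with each batch left out. PSME3, a nuclear activator, rose in vorinostat (1.11, SE 0.35) and PSME4 in mocetinostat (0.83, SE 0.27), with overlapping groups in PSME4. Neither held with each batch left out. PSME2, a subunit of the interferon-inducible activator, had values from -0.93 to -0.24, negative in 8 of 8 chemicals, and was called in 0. Its partner PSME1 had a median of 11 counts and was called in 0.

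PSMD10, a chaperone of the base also known as gankyrin, fell in panobinostat from 35.8, 43.2 and 37.7 CPM to 16.2, 22.1 and 24.4 CPM (log2 change -0.91, SE 0.28, edgeR adjusted p = 0.0280). The groups did not overlap, but the call was lost with any batch left out, the highest adjusted p being 0.164. The other base chaperone features had 0 calls, with 20 tests in all and a median of -0.23. PSMG1 and PSMG3, chaperones of the core, had 0 calls at C5 in 16 tests. PSMG1 was called falling in vorinostat at C4 (-0.91, SE 0.33, adjusted p = 0.0275), and at C5 its change was 0.08. PSMC3IP, which only shares the prefix, rose in mocetinostat from 79.1, 86.1 and 66.5 CPM to 281, 170 and 200 CPM (1.57, SE 0.24) and in tacedinaline from 59.8, 88.8 and 77.6 CPM to 139, 152 and 155 CPM (1.04, SE 0.18). In vorinostat it was called falling at C4 (-0.65, SE 0.25, adjusted p = 0.0404) and not at C5 (-0.24).

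Summed over the chemicals, member calls began at C3 and increased with concentration. The share of all features called increased too in most chemicals. At C3 and C4 the member share lay under that of all features wherever members were called. Panobinostat and scriptaid had member calls at C5 only, and valproic acid and trichostatin A had none at any concentration. At C2 there were 0 calls among members in any chemical, by edgeR's quasi-likelihood test. The shares of all features called there were 0.102% in apicidin, 0.191% in mocetinostat, 0.385% in tacedinaline, 0.0172% in vorinostat and 0% in the other 4. At an unadjusted p under 0.05 there were 7 members in tacedinaline, 4 in mocetinostat, 2 in valproic acid, 1 each in apicidin, trichostatin A and vorinostat, and 0 in panobinostat and scriptaid. Without batch 3 there were 5 rising and 9 falling calls at C2 over the 8 chemicals, and without the C2 library of batch 3 alone mocetinostat had 16. In mocetinostat at C2 the members held 0.293%, 0.339% and 0.425% of the counts in batches 1, 2 and 3. At C1 they held 0.339%, 0.383% and 0.371%. Which of the C2 libraries stood apart was not tested, and the share of all features called in these fits is not given here.

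At C3 there were 6 rising and 2 falling calls, both of the latter in PSMB8. Mocetinostat had 4 (8.33%, against 11.6% of all features), tacedinaline 2 (4.26% against 11.9%), apicidin 1 (2.08% against 15.3%) and vorinostat 1 (2.17% against 7.06%). The others had 0, against 0.00763% in panobinostat, 1.34% in scriptaid, 0% in trichostatin A and 1.13% in valproic acid. At C4 there were 25 rising and 7 falling calls. Vorinostat had 14 (30.4% against 32.3%), tacedinaline 11 (23.4% against 32.8%), mocetinostat 5 (10.4% against 23.7%) and apicidin 2 (4.17% against 22.3%). The rest had 0, against 2.56% in panobinostat, 4.87% in scriptaid, 0% in trichostatin A and 11.9% in valproic acid. Valproic acid thus had 0 member calls at C4 and C5 although 1540 and 1435 features of the table were called.

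A straight line on log2 concentration over all 5 levels gave 50 rising and 7 falling calls. Vorinostat had 18 (39.1% against 47.4% of all features), tacedinaline 15 (31.9% against 43.3%), mocetinostat 10 (20.8% against 35.6%), apicidin 8 (16.7% against 34.4%) and panobinostat 6 (12% against 17.4%). Scriptaid, trichostatin A and valproic acid had 0, against 13%, 0.0616% and 14.9%. The falling calls were PSMB8 in 5 chemicals, PSMB9 in tacedinaline (-0.92) and PSMD10 in panobinostat (-0.95).

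The summed level of the 58 features was higher at C5 than at C1 in each chemical, as a description. It went from 4429 ± 88.3 to 5787 ± 474 CPM in vorinostat (SD, n = 3, ratio 1.31), from 4551 ± 107 to 5590 ± 98.1 CPM in apicidin (ratio 1.23) and from 3987 ± 222 to 4171 ± 306 CPM in trichostatin A (ratio 1.05). In the other 5 chemicals the ratio lay between 1.11 and 1.21. In every chemical but trichostatin A the lowest C5 library lay above the highest C1 library. With library totals and no scaling factors the ratios lay between 1.04 and 1.496, and the median of all features moved by up to 0.19 on the log2 scale, so part of a rise depends on the scaling.

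Genes that work with the proteasome moved in both directions. Of 146 tests of 17 cofactor genes of the 26S particle, 22 were called rising (15.1%) and 11 falling (7.53%), with a median of 0.19, against 11.6% and 13.4% of all tests. SEM1, a small subunit of the cap outside the PSM names, rose in 7 of 8 chemicals, from a mean of 208 to one of 691 CPM in vorinostat (log2 change 1.84, SE 0.14, edgeR adjusted p = 1.11e-12), and by 0.68 to 1.32 in the other 6. In trichostatin A its change was 0.04 (SE 0.18). ECPAS, an adaptor that binds the 19S and 20S particles to each other, fell in the same 7 chemicals, by up to 2.59 on the log2 scale in scriptaid (144 ± 14.6 to 22.8 ± 3.78 CPM), and changed by -0.00 in trichostatin A. POMP, the chaperone of the forming core, rose in panobinostat (0.83), tacedinaline (0.74) and vorinostat (1.15).

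NFE2L1 is the transcription factor that drives the synthesis of proteasome subunits when the protease is blocked. Its list also holds the related NFE2L2, the small MAF partners, and DDI2 and NGLY1, which process NFE2L1. The list had 5 rising (8.2%) and 6 falling (9.84%) calls in 61 tests, against 11.6% and 13.4% of all tests, with a median of 0.05. All 5 rising calls were of MAFK, a small MAF partner. NFE2L1, DDI2 and NGLY1 had 0 rising calls, DDI2 was called falling in 2 chemicals and NGLY1, by 1 of its 2 features, in 1. NFE2L1 itself fell in mocetinostat (-0.92), scriptaid (-1.22) and tacedinaline (-0.59). Of the ubiquitin and ubiquitin-activating genes, 4 of 6 had a feature. Of their 32 tests, 8 were called rising (25%, against 11.6% of all tests) and 0 falling (against 13.4%). The protein folding stress list had 15 rising (17%) and 10 falling (11.4%) calls in 88 tests, against 11.6% and 13.4% of all tests. HERPUD1, a component of degradation at the endoplasmic reticulum, fell in 6 chemicals, by 1.58 in apicidin and 1.94 in scriptaid on the log2 scale. HSPA1B, a heat shock chaperone with a near-identical gene copy that the probe may not tell apart, rose in 5. The feature of that copy, HSPA1A, was called rising in 1 chemical and ranged from -1.07 to 2.61.

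The antigen presentation list held 29 falling (23%, against 13.4% of all tests) and 9 rising calls (7.14%, against 11.6%) in 126 tests, with a median of -0.29. ERAP2, a peptidase that trims peptides for MHC class I, fell in 7 chemicals, from 268 ± 9.35 to 25.5 ± 1.14 CPM in tacedinaline (SD, n = 3, log2 change -3.31, SE 0.20, edgeR adjusted p = 4.71e-18) and by 1.11 in valproic acid on the log2 scale. ERAP1, its relative, fell in 6 chemicals, the largest change being -2.51 in scriptaid (SE 0.51). TAPBP, which loads peptides onto MHC class I, fell by its feature TAPBP_26444 in 6 chemicals, by 0.72 to 1.34, and by its other feature in 5. ERAP1 and TAPBP_26444 each fell in the 6 chemicals in which PSMB8 fell. In these 6 chemicals 9.46% (panobinostat) to 24.9% (vorinostat) of all features were called falling. At least 11 of the 12 hepatocyte marker features fell in each of them too, so the overlap is not particular to this list. A link between these genes was not tested. B2M, the light chain of MHC class I, was called in 0 chemicals and ranged from -0.22 to 0.31. B2M, POMP, NFE2L1, HSPA1B and HSPA1A, and among the members PSMA3, PSMB4_14756, PSMD1_90600 and PSMC2, were chosen after their values were seen.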

How the data were processed

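TempO-Seq, a targeted assay in which detector probes are ligated on the RNA of cell lysates and sequenced, was applied to 118 libraries. Per the labels and the file headers, the deposited values are whole-number read counts for each probe, not normalized by the authors (22069 rows, of which 22068 are complete). The submitters' processing notes name bcl2fastq 2.20.422, fastp 0.23.2, STAR 2.7.10b and DESeq2 1.38.0. The genome build is not given in the sources used here. Groups follow the chemical and concentration in the labels. The paper supplied with the series describes another experiment and was used for style only.

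Each chemical was fitted alone in R 4.3.3 with edgeR 4.0.16 (quasi-likelihood test, TMM factors, filterByExpr), on a factor of 5 concentrations, with Benjamini-Hochberg adjustment over 11631 to 13104 features. Standard errors were taken from the fold change and its F value. The trend is a slope on log2 concentration, given as the fitted change from C1 to C5. Changes within batches used log2(CPM + 1). The fit was tested on simulated data. A difference between chemicals was to be tested only for members called in opposite directions at C5, and there were 0.

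Named features are, in each structural class, the 3 called by trend in the most chemicals, with ties broken by the larger mean absolute fitted change. PSMB5 to PSMB10, PSME1, PSME2, PSMD4, PSMD14 and PSMC3IP were named in every case, as were members called at C5 against most of their class. List genes called at C5 in at least 6 chemicals were named too. The members and lists were chosen with earlier results of these data known. The replicate numbers are HepaRG batches per the labels and so pair the samples. The median correlation of deviations from the group means was 0.0371 in 232 pairs of the same batch and -0.0171 in 464 pairs of different batches. Alternatives were DESeq2 1.42.0, RLE size factors, no filter, the batch as a block, adjusted p alone, the trend, and each batch left out. Unscaled library totals and the removal of single libraries from scriptaid and mocetinostat were added after the data were seen.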

Additional observations from a re-analysis of the deposited data

How the results depend on the processing

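With the HepaRG batch as a replicate block, all 22 counts of members called kept within 1.5 times their value (7 rising members in apicidin, for example), and 53 of 53 named changes kept their side of the threshold. Over all alternatives 22 of these 53 changes did so. The change of PSMB8 in trichostatin A turned positive without batch 1 (0.24) and without batch 2 (0.02), and was -0.53 without batch 3. The cause of the differences below was not tested, and the shares of all features called in these fits are not given here. With single batches left out, rising members at C5 ranged from 3 to 7 in apicidin, 2 to 4 in mocetinostat (9 without its C2 library of batch 3), 0 to 4 in panobinostat, 0 to 10 in scriptaid (8 without its C4 library of batch 3) and 6 to 9 in tacedinaline. Falling members ranged from 0 to 1 in apicidin, 1 to 2 in mocetinostat (4 without its C2 library of batch 3), 1 to 1 in panobinostat, 2 to 4 in tacedinaline and 1 to 3 in vorinostat. Summed over the chemicals, the range at C2 was 0 to 5 rising and 0 to 9 falling, at C3 1 to 11 rising and 0 to 2 falling, and at C4 16 to 24 rising. The trend gave 1 falling member in mocetinostat and 0 rising and 0 falling in scriptaid. DESeq2 gave 4 falling in mocetinostat and 5 rising in panobinostat. Without a filter there were 5 rising in panobinostat, 0 in scriptaid, 2 falling in vorinostat and 12 rising at C3. Adjusted p alone gave 4 falling in tacedinaline and 2 in vorinostat. Unscaled totals, chosen after seeing the data like the removal of single libraries, gave 5 rising in panobinostat, 4 in scriptaid and 17 in tacedinaline, 1 falling in mocetinostat and 1 in tacedinaline, 13 rising at C3, and 39 rising and 4 falling at C4. With CPM of plain totals the ratio of the summed level at C5 to C1 was 1.32 in apicidin, 1.44 in mocetinostat, 1.28 in panobinostat, 1.33 in scriptaid, 1.34 in tacedinaline, 1.23 in valproic acid and 1.496 in vorinostat. Members with a median under 10 counts, such as PSMB5, could not be followed at this depth.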
